A study of Mus musculus with 153 samples.

Results

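Whole tissue RNA of mice shocked in a new context was set against that of mice placed in the new context alone (box), in the dorsal hippocampus at the time point labelled 15 min. The members are the 24 total lysates of these 2 conditions, out of 153 samples in the series. They were chosen by label, 14 from shocked mice (4 of the Camk2a line, 5 of the Pvalb line and 5 of the Sst line) and 10 from box mice (3, 4 and 3). The mice carry a Cre driver and a floxed TRAP allele, written Camk2a.Cre/TRAPfl, Pvalb.Cre/TRAPfl and Sst.Cre/TRAPfl. TRAP tags ribosomes in the cells that the driver marks, so that their RNA can be purified, but a lysate holds RNA of every cell of the dissected tissue and the driver here only names the line. Mice kept in the home cage, with the same alleles, gave 10 further lysates (3, 3 and 4), which share the model fit as an outside reference. No group lacks the Cre and TRAP alleles, and no age is used here. The labels call the shocked mice conditioned, and none of the labels used here says from which moment the 15 min run.

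Neurons that fire strongly switch on immediate early genes within minutes. Calcium and cAMP signals reach the transcription factors CREB and SRF, which already sit on the promoters of genes such as Fos, Arc and Nr4a1, so that no new protein is needed for the first wave. A foot shock is also a stressor, and the adrenal hormone corticosterone then reaches the hippocampus, where glucocorticoid receptors switch on genes such as Fkbp5, Sgk1 and Tsc22d3. Exploring a new place drives the activity genes without any shock, which is why a box group is the stricter control for the shock itself.

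The 24 lysates held 16392725 to 127244348 counts, with medians of 61716000 in box and 61371862.5 in shock, and the Camk2a libraries were the shallowest (16392725 to 30209552). Y-linked genes called 5 of 10 box mice and 10 of 14 shocked mice male. Markers of pyramidal neurons, GABA neurons, astrocytes, oligodendrocytes and microglia were all detected. The label cell type given to these samples is neuron, whereas the 12 astrocyte markers together made up 4975 to 6637 CPM (counts-per-million over all counts of a library) and the 12 oligodendrocyte markers 3864 to 13380 CPM in these lysates. In such bulk RNA, fewer cells of a type and less RNA per cell cannot be told apart.

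No gene separated shock from box. Of 16067 genes tested, 0 passed an adjusted p of 0.05 (edgeR's quasi-likelihood test over the 3 lines with line as a covariate and Benjamini-Hochberg adjustment; 0% called), and DESeq2 called 15. At an unadjusted p under 0.05 there were 128 genes with the higher mean in shock (0.797% of those tested) and 144 with the lower mean (0.896%). For 0 genes did all 14 shock libraries lie above all 10 box libraries, and for 0 genes below. The median standard error (SE) of a log2 fold change was 0.149, and 0.131 among the 13441 genes over 1 CPM. Of the 15 genes called by DESeq2, 13 had counts in at most 5 of the 24 libraries.

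Within a line edgeR's test gave the same picture. By edgeR 0 genes passed in the Camk2a line (777 at an unadjusted p under 0.05, smallest adjusted p = 0.179), 0 in the Pvalb line (513) and 0 in the Sst line (144). DESeq2 called 30, 6 and 0. The 30 of the Camk2a line had counts in 6 to 24 of the 24 libraries, with Ikzf1, Snai2 and Npas4 among those in all 24. The values that follow are therefore levels and fold changes of genes that did not pass edgeR's adjusted test, with unadjusted p where one is given. Replicates measure the spread between mice of 1 line and condition as far as the labels tell.

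Of the 14 gene lists, that of rapid activity genes, the first wave of neuronal activity, had the largest median with all libraries, a rank that rests on 1 library. Its 34 tested members had a median log2 fold change of 0.26 for shock against box, where all genes together had -0.013. Of the 34, 28 (82.4%) had the higher mean in shock, against 45.5% of all genes, and 10 had it in each of the 3 lines, against 8.53%. At an unadjusted p under 0.05, 3 were higher (Nr4a1, Cyr61 and Junb) and 0 lower. The glucocorticoid response list came next, with 19 of 22 members higher and a median of 0.14. Without Camk2a shock replicate 4 the order of these lists turned, with medians of 0.079 for rapid activity and 0.123 for the glucocorticoid response. The order also turned without the Camk2a line (0.17 and 0.25). It stayed without the Pvalb line (0.25 and 0.16) and without the Sst line (0.25 and 0.074).

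**Figure D1:**
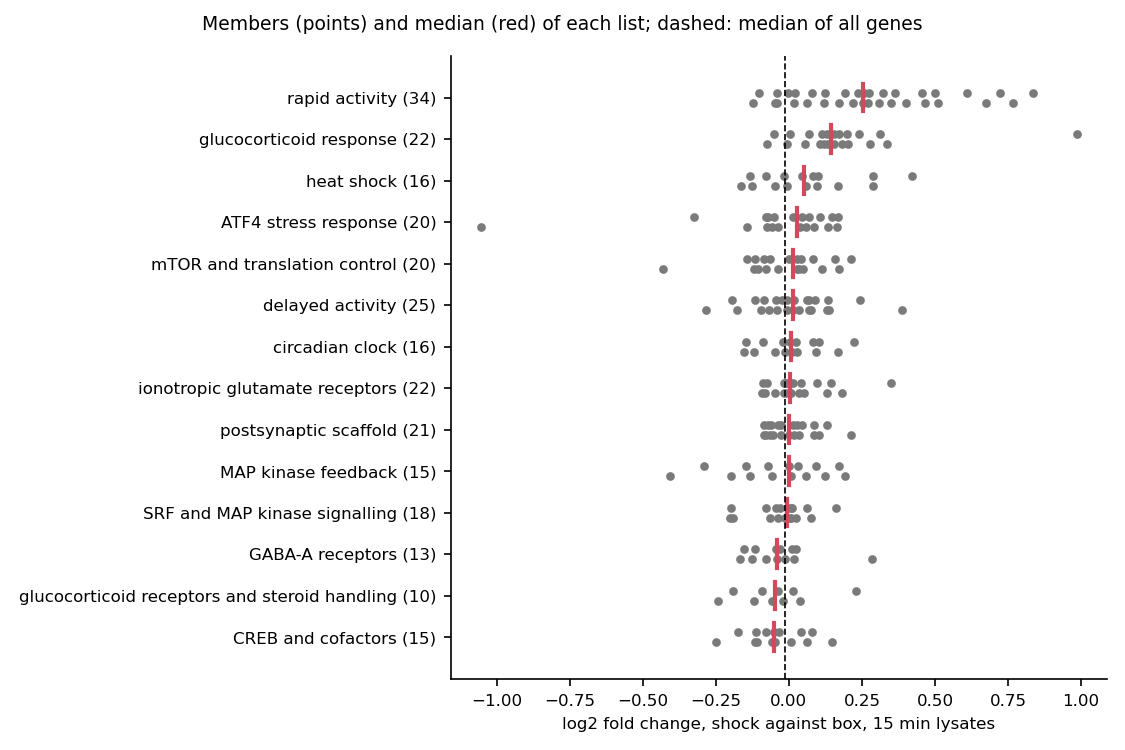
Log2 fold change of shock against box in the 15 min lysates for each tested member of 14 gene lists (points), with the list median (red bar), the number of tested members in brackets and the median of all genes (dashed line). With all libraries the rapid activity median is 0.26 and the glucocorticoid response median 0.14, whereas without Camk2a shock replicate 4, which is not plotted, they are 0.079 and 0.123.

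Nr4a1, an orphan nuclear receptor gene induced by activity (chromosome 15, 101254269 to 101274795, GRCm38), had the smallest unadjusted p of the rapid activity list. In box mice it stood at 55.5, 88.9 and 93.6 CPM in the Camk2a line, at 140, 79.0, 91.4 and 104 CPM in the Pvalb line and at 65.8, 105 and 84.6 CPM in the Sst line. In shocked mice it stood at 58.1, 51.0, 69.0 and 126 CPM in the Camk2a line, at 135, 119, 138, 176 and 163 CPM in the Pvalb line and at 128, 135, 130, 110 and 121 CPM in the Sst line. All 5 Sst shock libraries thus lay above all 3 Sst box libraries, while the groups overlapped in the Camk2a and Pvalb lines. Groups of so few libraries can separate without an effect. The share of all genes that separate within a line is not given, here or for the genes below.

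Over the 3 lines Nr4a1 was 118 ± 36.3 CPM in shock (SD, n = 14) and 90.8 ± 23.2 in box (n = 10), a log2 fold change of 0.35 ± 0.14 (SE; unadjusted p = 0.0144, adjusted p = 1.0, edgeR). Home cage mice held 45.6 ± 12.7 CPM (n = 10), below both. Against the home cage, Nr4a1 rose by 1.32 ± 0.14 in shock (adjusted p = 6.37e-07, edgeR) and by 0.97 ± 0.15 in box (adjusted p = 0.00207), and both comparisons share the home cage libraries. By line the shock against box value was -0.03 in Camk2a, 0.51 in Pvalb and 0.52 in Sst lysates, a difference between lines that did not pass (unadjusted p = 0.20).

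The upstream windows of rapid activity genes are shown because the members lean the same way and because TGACG, the core letters of the cAMP response element that CREB binds, is common in them. RefSeq (GRCm38.p6) gave promoters for 27 of the 34 genes, 37 windows of 250 bases before the start site. Of these windows 25 (67.6%) hold TGACG on either strand, against 17.8% of all 32851 windows. By gene it is in 18 of the 27 (66.7%), as windows of 1 gene can overlap. The palindrome TGACGTCA, which contains the shorter motif, is in 3 of the 37 (8.1%) against 1.55% of all. The CArG box, bound by SRF, is in 4 windows, against 1.47% of all. All are of Egr2, 1 of the 27 genes (3.7%), and some of them overlap and hold the same element. The windows below run 5′ to 3′ along the gene, with TGACG or its reverse complement CGTCA in capitals. A match describes letters and shows no binding. The Nr4a1 window (chr15:101266596-101266845, plus strand) has 4 matches, Fos (chr12:85473640-85473889, plus) has 2 and Cyr61 (chr3:145649986-145650235, minus) has 1.
Nr4a1: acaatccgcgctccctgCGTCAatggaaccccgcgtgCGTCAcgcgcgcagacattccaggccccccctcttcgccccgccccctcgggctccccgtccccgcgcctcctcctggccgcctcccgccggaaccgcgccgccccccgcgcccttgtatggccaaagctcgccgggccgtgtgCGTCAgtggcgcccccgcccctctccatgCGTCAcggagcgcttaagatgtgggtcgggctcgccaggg
Fos: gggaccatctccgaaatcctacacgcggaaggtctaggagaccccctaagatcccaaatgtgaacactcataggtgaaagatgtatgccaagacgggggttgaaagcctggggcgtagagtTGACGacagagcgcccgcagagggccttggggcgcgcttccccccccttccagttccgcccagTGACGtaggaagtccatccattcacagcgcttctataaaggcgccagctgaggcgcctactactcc
Cyr61: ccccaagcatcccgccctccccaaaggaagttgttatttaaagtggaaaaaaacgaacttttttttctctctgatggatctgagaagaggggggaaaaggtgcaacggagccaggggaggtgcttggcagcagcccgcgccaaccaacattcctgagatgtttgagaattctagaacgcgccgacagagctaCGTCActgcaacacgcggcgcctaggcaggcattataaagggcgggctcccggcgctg

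Cyr61, which codes a secreted matrix protein and is an immediate early gene of SRF and YAP signalling, stood at 4.69, 7.10 and 8.30 CPM (Camk2a), 18.6, 9.35, 7.08 and 8.64 CPM (Pvalb) and 9.48, 9.64 and 7.498 CPM (Sst) in box mice. In shocked mice it stood at 5.95, 3.24, 6.83 and 37.7 CPM (Camk2a), 28.9, 19.96, 24.4, 14.9 and 7.40 CPM (Pvalb) and 15.2, 12.6, 10.6, 9.73 and 9.14 CPM (Sst). The groups overlapped in every line, and Camk2a shock replicate 4 held the highest value of all. The log2 fold change was 0.72 ± 0.28 (unadjusted p = 0.016, edgeR), and 0.39 (unadjusted p = 0.0898) without Camk2a shock replicate 4.

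Fos, the classical activity marker and a subunit of AP-1, had 28.0, 59.2 and 52.6 CPM (Camk2a), 54.3, 60.5, 36.5 and 37.2 CPM (Pvalb) and 41.6, 45.1 and 43.2 CPM (Sst) in box mice. Shocked mice had 38.1, 46.6, 37.2 and 462 CPM (Camk2a), 74.5, 52.3, 48.3, 64.7 and 59.7 CPM (Pvalb) and 70.4, 44.9, 44.6, 43.1 and 42.5 CPM (Sst). The 462 CPM again belong to Camk2a shock replicate 4, and box and shock overlapped in each line. The log2 fold change of 0.68 ± 0.33 (unadjusted p = 0.0505, edgeR) was 0.15 (unadjusted p = 0.386) without that library.

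Arc, whose protein acts at synapses in AMPA receptor removal, ran from 213 to 686 CPM in box (median 368) and from 158 to 778 CPM in shock (median 585). In the Sst line the 5 shock libraries held 667, 674, 778, 579 and 605 CPM and the 3 box libraries 366, 686 and 370 CPM, so that 1 box library reached the shock range. The log2 fold change was 0.36 ± 0.18 (unadjusted p = 0.0538, edgeR), and 0.18 without Camk2a shock replicate 4. Junb, another AP-1 subunit, ran from 68.6 to 192 CPM in box (median 124) and from 55.1 to 519 CPM in shock (median 154), a log2 fold change of 0.50 ± 0.23 (unadjusted p = 0.0375) that was 0.12 without the same library.

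**Figure D2:**
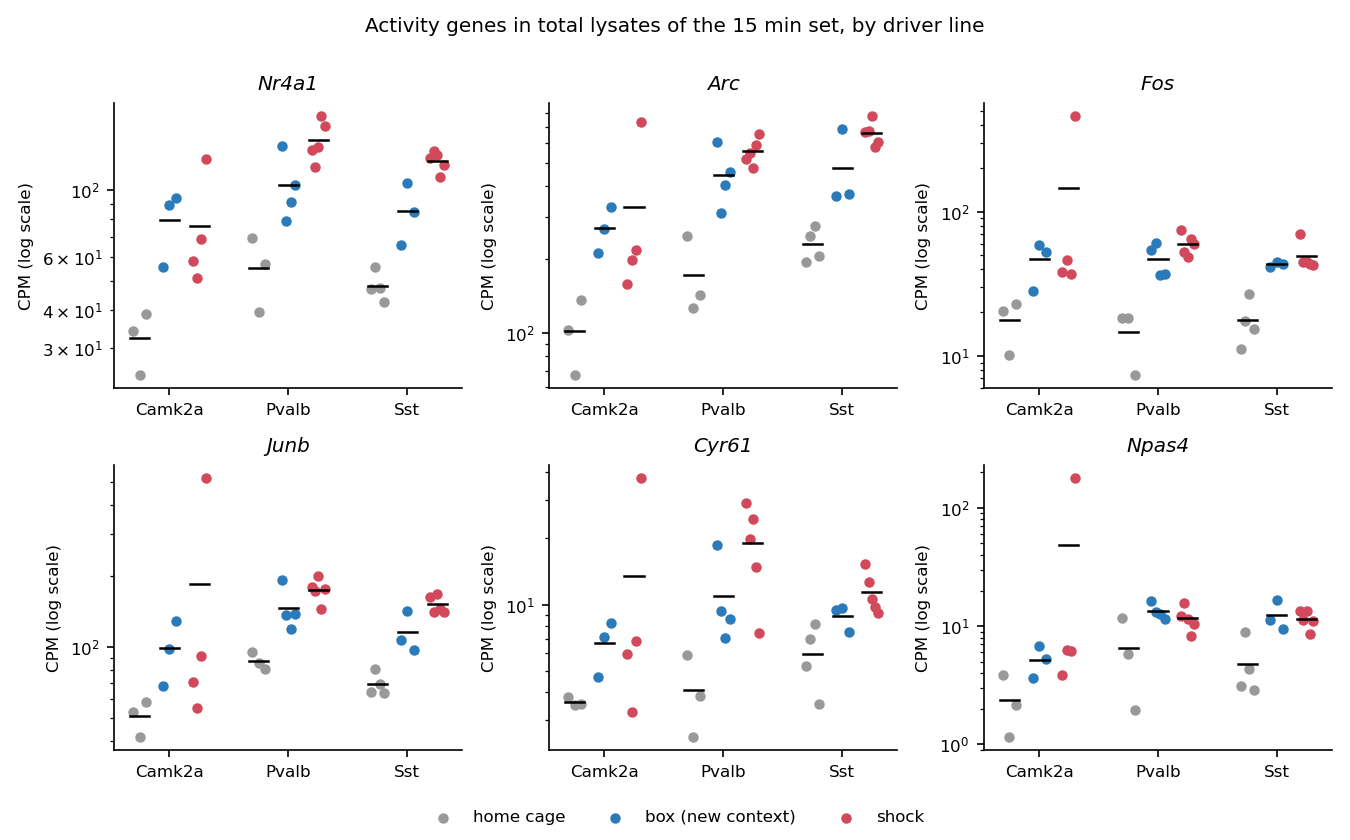
CPM on a log axis of 6 rapid activity genes in each 15 min lysate, by driver line and condition (points, 1 per library), with the mean of each group (black bar). Box and shock libraries both lie mostly above the home cage and overlap each other, and in the Camk2a line 1 shock library stands far above the other 3, at 462 CPM of Fos.

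That library carried much of the list. Camk2a shock replicate 4 held 179 CPM of Npas4, a neuron-specific activity factor, against 3.83 to 6.29 CPM in the 3 other Camk2a shock libraries, and 411 CPM of Btg2, an antiproliferative gene, where the others held 32.7 to 43.7 CPM. It held 134 CPM of Egr2 against 5.17 to 6.89, and 193 CPM of Egr4 against 20.4 to 36.8. Without it the list median was 0.079, 24 of 34 members were higher (against 46.5% of all genes) and 1 (Nr4a1, 0.28, unadjusted p = 0.0363) stayed under an unadjusted p of 0.05, beside 0.947% of all genes tested in that fit. The log2 fold changes of Egr2, Egr4, Fosb and Ier2 went from 0.77, 0.47, 0.61 and 0.32 to 0.087, 0.051, 0.11 and 0.025. Npas4 went from 0.84 to -0.105, Btg2 from 0.46 to -0.10 and Dusp1, the phosphatase gene of MAP kinase feedback, from 0.22 to 0. Egr1 went from 0.27 ± 0.15 to 0.13.

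**Figure D3:**
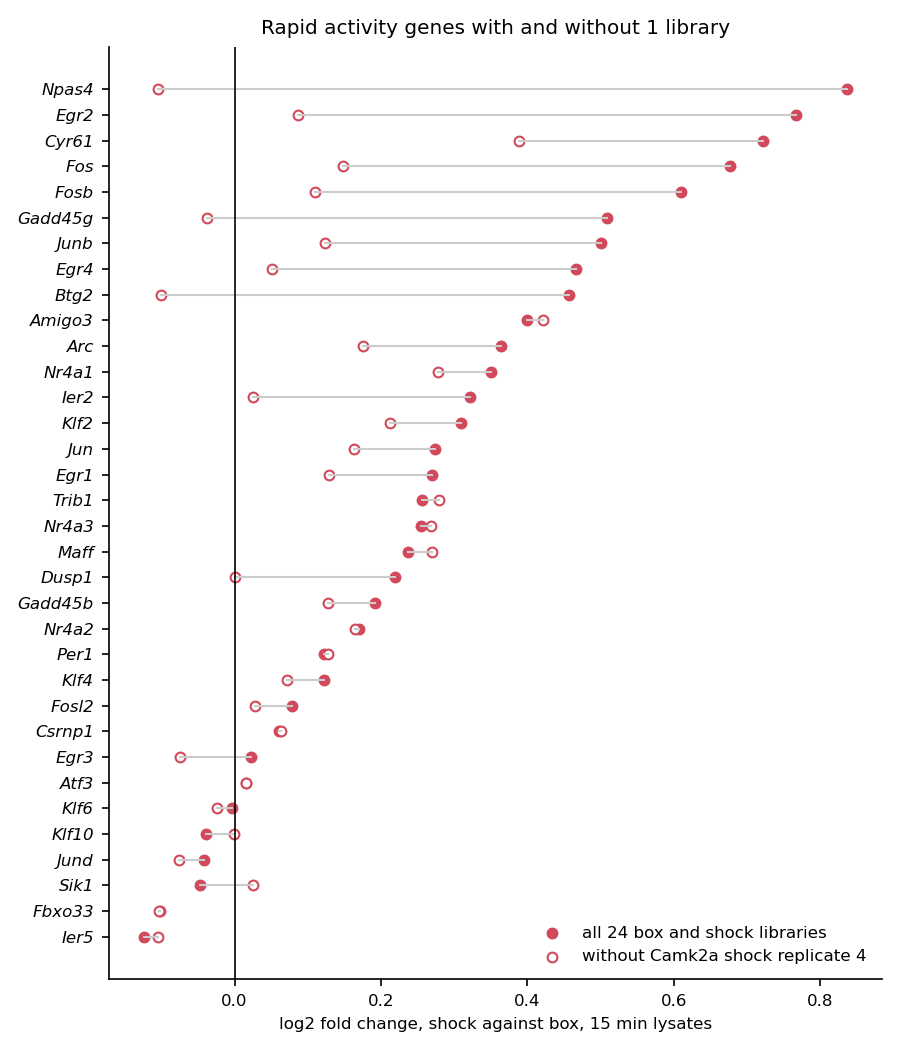
Log2 fold change of shock against box for each of the 34 rapid activity genes with all 24 box and shock libraries (filled) and without Camk2a shock replicate 4 (open). Npas4 moves from 0.84 to -0.105 and Fos from 0.68 to 0.15, while Nr4a1 moves from 0.35 to 0.28.

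In the lysates of the Pvalb and Sst lines alone, the list median was 0.17, between the values with and without that library. There 28 of 34 members were higher (against 49.4% of all genes in that fit) and 10 at an unadjusted p under 0.05, against 2.34% of the genes tested in that fit. These were Nr4a1 (0.51, unadjusted p = 0.000209, adjusted p = 0.857, edgeR), Junb (0.30), Trib1 (0.47), Arc (0.39), Klf2 (0.45), Egr1 (0.33), Csrnp1 (0.32), Egr4 (0.28), Cyr61 (0.59) and Per1 (0.28). By edgeR 0 of 15913 genes passed the adjusted test there (674 at an unadjusted p under 0.05). Npas4 and Btg2 were not among the 10, at -0.17 and -0.099. Nr4a1, Junb and Cyr61 are the members under an unadjusted p of 0.05 both here and over the 3 lines. Both fits hold the same Pvalb and Sst lysates, so this is no replication. With the 3 lines but without Camk2a shock replicate 4, Junb had an unadjusted p of 0.261 and Cyr61 of 0.0898 (edgeR).

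Other members of the list include Egr3, an Egr1 relative (66.5 ± 50.0 CPM in shock, n = 14; 63.9 ± 51.0 in box, n = 10; SD), and Nr4a2, an Nr4a1 relative (65.6 ± 14.9 against 59.7 ± 18.4 CPM). Their log2 fold changes were 0.022 ± 0.23 and 0.17 ± 0.16 (SE), and 0.018 and 0.33 without the Camk2a line (unadjusted p = 0.94 and 0.0912, edgeR).

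The glucocorticoid response list holds genes known to be induced through the glucocorticoid receptor, and 3 of its 22 members were higher at an unadjusted p under 0.05 (Hif3a, Ddit4 and Errfi1) and 0 lower, where 0.797% and 0.896% of all genes were. In each of the 3 lines 7 were higher, against 8.53% of all genes. Hif3a, a hypoxia pathway factor, stood at 3.02, 0 and 1.46 CPM (Camk2a), 2.80, 1.47, 0.564 and 2.79 CPM (Pvalb) and 1.48, 2.75 and 3.09 CPM (Sst) in box mice. In shocked mice it stood at 2.37, 4.57, 3.86 and 2.34 CPM (Camk2a), 5.63, 10.2, 2.23, 1.86 and 4.30 CPM (Pvalb) and 4.004, 1.40, 3.97, 4.29 and 3.69 CPM (Sst). The groups overlapped in every line at this low level, and the log2 fold change was 0.99 ± 0.42 (unadjusted p = 0.0256, edgeR).

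Ddit4, a stress-induced inhibitor of mTOR, was 9.23 ± 2.09 CPM in shock and 7.47 ± 1.63 in box, and in the Pvalb line the 5 shock libraries (8.38, 10.7, 8.26, 8.70 and 8.93 CPM) lay above the 4 box libraries (6.90, 7.69, 6.71 and 6.91 CPM). Its log2 fold change over the 3 lines was 0.31 ± 0.15 (unadjusted p = 0.0427, edgeR). Ddit4 is among the list members with the smallest p, so the separation in the Pvalb line adds no separate support. Its single libraries in the other lines are not given here. Errfi1, which codes a feedback inhibitor of EGF receptors and is also in the MAP kinase feedback list, had 0.17 ± 0.08 (unadjusted p = 0.0436), and 0.12 without Camk2a shock replicate 4. The textbook members Sgk1, a kinase of ion transport, Fkbp5, a chaperone that restrains the receptor, Tsc22d3, the anti-inflammatory factor GILZ, and Nfkbia, the NF-kB inhibitor, had 0.24 ± 0.16, 0.18 ± 0.10, 0.20 ± 0.12 and 0.11 ± 0.09, with unadjusted p from 0.0705 (Fkbp5) to 0.26 (Nfkbia).

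By line the glucocorticoid list median was -0.016 in the Camk2a line with 10 of 22 members higher, 0.20 in the Pvalb line with 18 and 0.31 in the Sst line with 21. Of all genes 47.9%, 52.2% and 48.1% were higher in these lines, so that the Camk2a count lay near its background. The difference between lines reached an unadjusted p under 0.05 for 2 members, Nfkbia (unadjusted p = 0.0455) and Cdkn1a, an inhibitor of cell cycle kinases (unadjusted p = 0.0186), against 3.04% of all genes, and 0 genes passed the adjusted test of it (edgeR; smallest adjusted p = 0.994). Leaving out the Camk2a line gave a median of 0.25 with 20 of 22 higher (against 49.4% of all genes), and 8 at an unadjusted p under 0.05 (against 2.34% of all genes on the higher side), of which 7 were Nfkbia (0.26), Cdkn1a (0.39), Ddit4 (0.35), Mt1 (0.30), Sgk1 (0.44), Fkbp5 (0.26) and Tsc22d3 (0.31). The eighth was Per1, a clock gene that is also in the rapid activity list. As the Camk2a line had the lowest list median, leaving it out favoured a higher median and more small p in advance. The 8 members thus add no separate support. Leaving out the Sst line gave a lower list median of 0.074, and leaving out the Pvalb line gave 0.16. Fkbp5 ran in the Sst line at 68.3, 78.5, 90.3, 72.7 and 72.6 CPM in shock and at 54.2, 70.6 and 51.6 CPM in box.

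**Figure D4:**
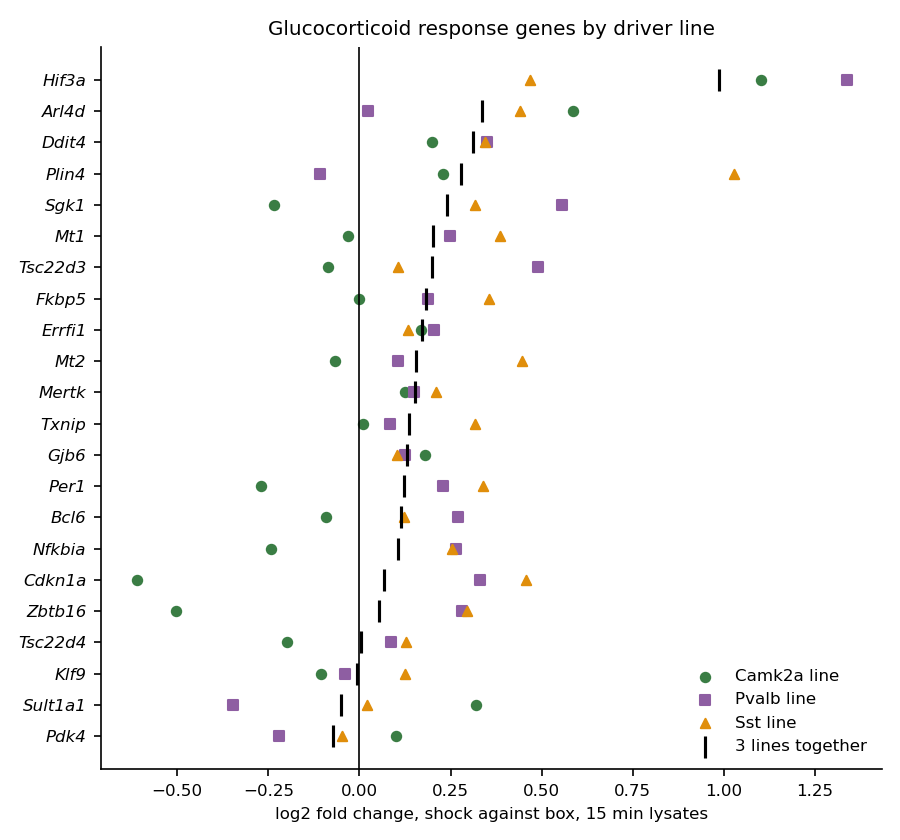
Log2 fold change of shock against box for the 22 glucocorticoid response genes in each driver line (symbols) and over the 3 lines together (black bar). Pvalb and Sst values lie mostly to the right of 0, with medians of 0.20 and 0.31, and Camk2a values lie on both sides of it, with a median of -0.016.

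The letters GNACANNNTGTNC of the glucocorticoid response element are in 3 of the 31 RefSeq windows of this list (9.7%), those of Sgk1, Mt1 and Txnip, against 0.39% of all windows. Mt1, a metallothionein that binds zinc, is shown because it is the most abundant of the 3. Its window (chr8:94178839-94179088, plus strand) has the element and 1 TGACG match in capitals. Mt1 ran at 693 ± 156 CPM in shock and 593 ± 83.4 in box (SD), a log2 fold change of 0.20 ± 0.10 (SE; unadjusted p = 0.051, edgeR).
Mt1: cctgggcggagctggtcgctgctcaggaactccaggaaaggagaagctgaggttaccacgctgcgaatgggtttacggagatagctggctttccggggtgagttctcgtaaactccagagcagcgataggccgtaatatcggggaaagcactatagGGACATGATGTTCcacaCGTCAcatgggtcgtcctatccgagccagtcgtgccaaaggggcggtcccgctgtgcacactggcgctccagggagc

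Among all genes with an established symbol, those with the smallest unadjusted p fell into 2 kinds. Fam83g, Dnm3os and Ldhal6b had counts in 11, 8 and 6 of the 24 libraries, and Tecrl, Calcoco2 and Klb also had 0 counts in many of them, so no fold is given. Dyrk3, Slc13a5, Vps33b, Ikzf1, Sco1, Cklf and Pcdh18 had counts in all 24. Dyrk3, a kinase that dissolves stress granules (chromosome 1, 131127455 to 131138340, GRCm38), stood at 23.5, 19.8 and 28.4 CPM (Camk2a), 24.2, 18.8, 15.7 and 21.3 CPM (Pvalb) and 24.3, 26.2 and 23.8 CPM (Sst) in box mice. In shocked mice it stood at 19.6, 31.5, 28.8 and 31.6 CPM (Camk2a), 27.6, 32.01, 26.5, 31.8 and 28.0 CPM (Pvalb) and 28.0, 29.5, 28.8, 34.2 and 27.9 CPM (Sst). All shock libraries lay above all box libraries in the Pvalb and in the Sst line, and the groups overlapped in the Camk2a line. As Dyrk3 was picked by its small p, this separation adds no separate support.

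Dyrk3 had a log2 fold change of 0.35 ± 0.10 (unadjusted p = 0.00134, adjusted p = 1.0, edgeR) and stayed between 0.30 and 0.40 whichever library was left out. Box mice (22.6 ± 3.74 CPM) and home cage mice (22 ± 4.59 CPM; SD, n = 10 each) differed by 0.03 ± 0.11, and shocked mice held 29.0 ± 3.48 CPM (n = 14). Slc13a5, the citrate transporter, was 2.74 ± 0.89 CPM in shock, 1.79 ± 0.47 in box and 2.82 ± 0.69 in the home cage (0.61 ± 0.18 for shock against box, unadjusted p = 0.00178), so that the shock mean lay close to the home cage mean and the box mean below both. Vps33b, a vesicle tethering factor, had 26.8 ± 3.59 against 22.7 ± 2.53 CPM and 0.25 ± 0.08 (unadjusted p = 0.0024).

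Dnajb1, the HSP40 co-chaperone of the heat shock response (chromosome 8, 83608193 to 83612653, GRCm38), stood at 91.6, 100 and 133 CPM (Camk2a), 164, 84.3, 93.3 and 89.5 CPM (Pvalb) and 114, 120 and 91.5 CPM (Sst) in box mice. In shocked mice it stood at 91.7, 152, 118 and 236 CPM (Camk2a), 197, 243, 134, 93.9 and 109 CPM (Pvalb) and 139, 123, 156, 119 and 117 CPM (Sst). The groups overlapped in each line. Its log2 fold change was 0.42 ± 0.13 (unadjusted p = 0.00348, edgeR), between 0.35 and 0.49 whichever library was left out, and against the home cage it rose in shocked mice by 0.63 ± 0.14 (adjusted p = 0.0413, edgeR). The heat shock list as a whole had 9 of 16 members higher, against 45.5% of all genes, and a median of 0.051. Only Dnajb1 was under an unadjusted p of 0.05 (edgeR), where 0.797% of all genes were on the higher side. Hspa1a, the inducible HSP70, had 0.29 ± 0.16 (unadjusted p = 0.087).

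On the lower side, Ikzf1, Sco1, Cklf and Pcdh18 were among the genes with the smallest p. Ikzf1, a lymphoid and microglial transcription factor, stood at 4.16, 3.14 and 4.51 CPM in Camk2a box mice and at 1.42, 0.861, 0.891 and 1.27 CPM in Camk2a shocked mice, with no overlap. In the Pvalb and Sst lines the groups overlapped (box 1.80 to 3.70 CPM, shock 1.10 to 3.74 CPM). The log2 fold change was -0.72 ± 0.22 over the 3 lines (unadjusted p = 0.0031, edgeR) and -1.80 in the Camk2a line, with a difference between lines at an unadjusted p of 0.0071. Sco1, needed to assemble cytochrome c oxidase, had -0.32 ± 0.10, Cklf, a chemokine-like factor, -0.59 ± 0.19, and Pcdh18, a protocadherin, -0.77 ± 0.25.

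**Figure D5:**
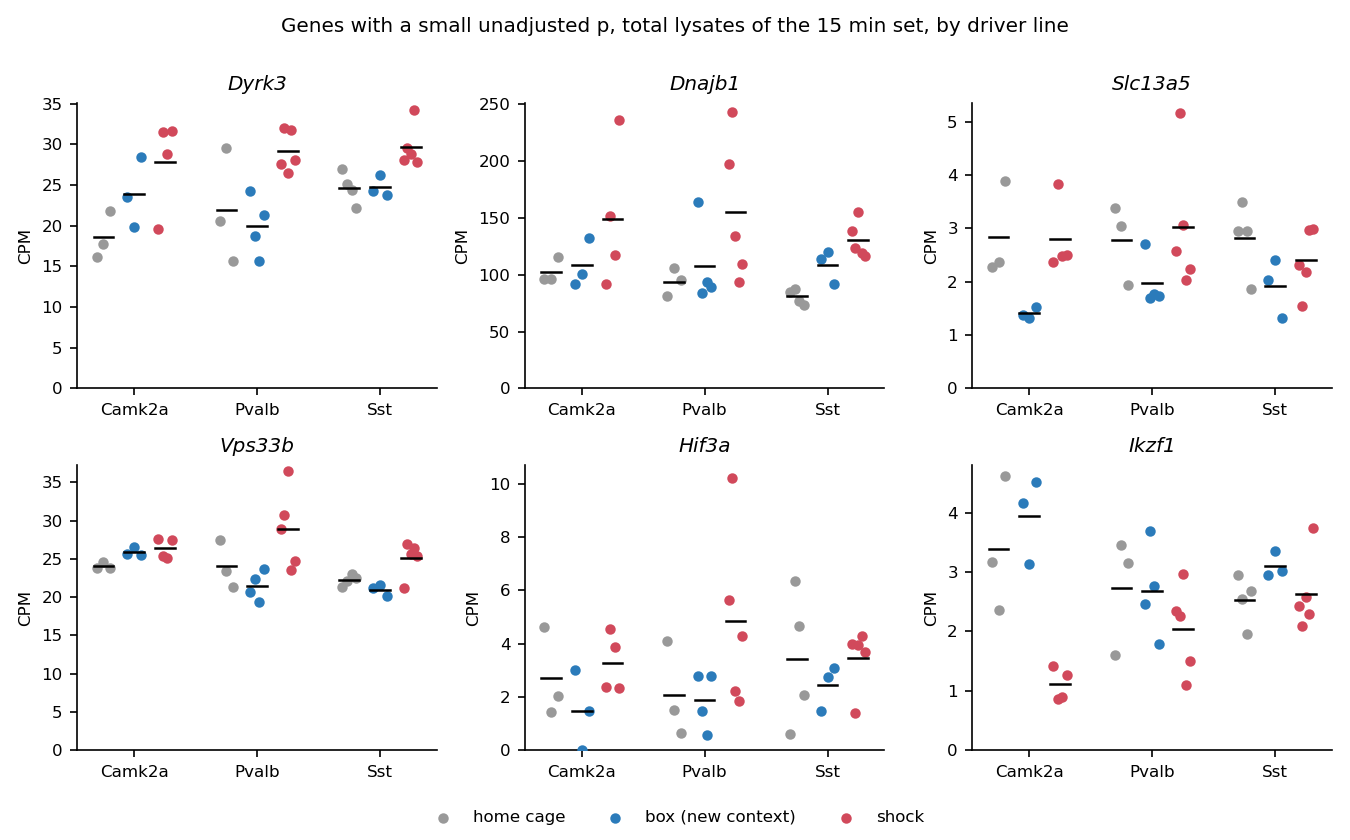
CPM of 6 genes with small unadjusted p in each 15 min lysate, by driver line and condition (points, 1 per library), with group means (black bars). Dyrk3 shock libraries lie above the box libraries in the Pvalb and Sst lines, and the Camk2a line alone separates the groups for Ikzf1 (0.861 to 1.42 CPM in shock).

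Over the 3 lines together, the later wave and the signalling lists were centred near 0. In the Camk2a, Pvalb and Sst lines 6, 17 and 13 of 25 delayed activity genes were higher, and 3, 12 and 9 of 15 MAP kinase feedback genes. For the CREB list it was 6, 7 and 6 of 15, and for the SRF list 5, 10 and 11 of 18. Of all genes 47.9%, 52.2% and 48.1% were higher in these lines. No list was tested for a difference between lines. Over the lines together, 45.5% of all genes had the higher mean in shock, and 0.797% were higher at an unadjusted p under 0.05 (edgeR). Delayed activity genes had 13 of 25 members higher and a median of 0.013, with Gpr3, a constitutively active receptor, as the only member under an unadjusted p of 0.05 (0.39 ± 0.16, unadjusted p = 0.0226, edgeR). The growth factor gene Bdnf and the scaffold gene Homer1 stood at 85.5 ± 27.1 against 87.4 ± 21.9 CPM and 80.7 ± 21.1 against 81.6 ± 26.7 CPM (shock against box, SD). MAP kinase feedback genes had 8 of 15 higher and a median of 0.0004, with Dusp5, a nuclear ERK phosphatase, at 0.19 ± 0.12. Of the CREB and cofactor list 5 of 15 were higher, with a median of -0.053 and Crebbp, the coactivator CBP, at 0.15 ± 0.09. The SRF and MAP kinase list had 8 of 18 higher, with the kinase gene Rps6ka2 at 0.16 ± 0.10.

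Receptors and steroid handling genes had 3 of 10 higher, against 45.5% of all genes. Nr3c1, the glucocorticoid receptor itself, was at -0.19 ± 0.13 and Crhr1, the CRH receptor, at 0.23 ± 0.19. The ATF4 stress list had 11 of 20 higher, with Atf4 at 0.15 ± 0.10, and the circadian clock list 9 of 16, with Npas2, a partner of the clock factor BMAL1, at 0.22 ± 0.16. The mTOR and translation list had 11 of 20 higher. In it Cpeb1, which controls poly(A) tails at synapses, was higher by 0.21 ± 0.09 (unadjusted p = 0.0232), and Eif2ak2, the kinase PKR, was at -0.43 ± 0.22.

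Over the 3 lines together, synaptic genes showed no common shift. In the Camk2a, Pvalb and Sst lines 10, 14 and 13 of 22 glutamate receptor and partner genes were higher. It was 11, 6 and 3 of 13 GABA-A receptor genes and 7, 15 and 15 of 21 scaffold genes. Of all genes 47.9%, 52.2% and 48.1% were higher in these lines. Over the lines together, the shares over all genes were 45.5% with the higher mean and 0.797% higher at an unadjusted p under 0.05 (edgeR). Ionotropic glutamate receptors and their partners had 12 of 22 higher (median 0.004), with the AMPA receptor partner Cnih3 at 0.13 ± 0.10. GABA-A receptor genes had 4 of 13 higher (median -0.041), with the subunit Gabrb2 at -0.17 ± 0.18. Postsynaptic scaffold genes had 11 of 21 higher (median 0.001). In this list Nlgn3, a synaptic adhesion protein, was higher by 0.21 ± 0.09 (unadjusted p = 0.0218), and Camk2a, the kinase that names a line, was at 0.085 ± 0.12. Pvalb and Sst, which name the other lines, were at -0.062 ± 0.11 and -0.018 ± 0.15.

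The test of a difference between lines called 0 of 16067 genes (0%; edgeR, 488 at an unadjusted p under 0.05; DESeq2 0). In the Camk2a line Ikzf1 and Snai2, a zinc finger repressor, were among the genes with the smallest p, and DESeq2 called these and Npas4 within that line (adjusted p from 0.000511 to 0.0285). Snai2 had a log2 fold change of 2.15 in the Camk2a line against 0.25 in Pvalb and -0.53 in Sst. Fam122b, an inhibitor of the phosphatase PP2A, was among the smallest p in the Sst line (-1.07 ± 0.31). It stood there at 13.9, 9.79 and 19.9 CPM in box and 8.22, 5.47, 6.02, 7.88 and 8.11 CPM in shock, with no overlap. Like Ikzf1 it was picked by its small p, so the lack of overlap adds no separate support for either gene. In the Pvalb line Fam122b was at 0.005. Npas4 (3.28 in the Camk2a line) and Btg2 (1.69) had an unadjusted p between lines of 0.0072 and 0.0226, and Camk2a shock replicate 4 held the high level of both. Without that library Npas4 was at 0.07 in the Camk2a line, and Btg2 was not refitted within the line.

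At 60 min the rapid activity list was centred near 0. In the 26 lysates labelled 60 min (15 shock, 11 box) its median for shock against box was -0.027, with 14 of 34 higher, near the 42.7% of all genes. The value at 60 min was below that at 15 min for 25 of 34 members, against 52.8% of all genes. For 2 of them, Cyr61 and Fos, it was so at an unadjusted p under 0.05 (edgeR), against 0.973% of 16655 genes. The 15 min side leans on Camk2a shock replicate 4. Without that library the 15 min list median was 0.079, with Fos at 0.15 and Cyr61 at 0.39. The members' differences between the times without it are not given here. The test of the difference between the times called 0 genes (0%; edgeR, 276 at an unadjusted p under 0.05, smallest adjusted p = 0.107), and DESeq2 called 33. Cyr61 was at -0.41 ± 0.23 at 60 min, a difference of -1.13 ± 0.34 (unadjusted p = 0.00143). Nr4a1 was at 95.2 ± 38.3 CPM in shock and 90.9 ± 37.2 in box at 60 min (SD), a log2 fold change of -0.056 ± 0.16 (SE). Dyrk3 was at -0.06 ± 0.09 and Slc13a5 at -0.29 ± 0.19, with unadjusted p of the difference of 0.00198 and 0.00155 (edgeR). Both genes were picked for their small p at 15 min, which is 1 side of this difference. A small p of the difference was thus favoured in advance and adds no support for a change with time. The glucocorticoid list had 19 of 22 members higher at 60 min too, with a median of 0.054. The 2 times were counted in separate tables, so time and set cannot be told apart.

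Marker genes of other cell types were not called by the test in any list, and no choroid plexus, oligodendrocyte, endothelial or microglial marker had an unadjusted p under 0.05 for shock against box (edgeR; smallest 0.0998). Choroid plexus genes (12 of 12 lower over the 3 lines, median -0.52) had a median of 2.35 in the Camk2a line, -1.90 in the Pvalb line and -0.33 in the Sst line. Their summed level ran from 242 to 16750 CPM in box and from 140 to 18070 CPM in shock, and Ttr, the thyroid hormone carrier that leads the list, was at 2222 ± 3121 against 3077 ± 3515 CPM (SD). Oligodendrocyte markers had 1 of 12 higher (median -0.091; summed 3918 to 13380 CPM in box and 3864 to 11760 in shock), endothelial markers 2 of 12 (-0.11) and microglial markers 9 of 12 (0.065; 490 to 765 against 504 to 980 CPM). Their part in the values above was not tested. With the score of non-neuronal markers as a covariate, the medians of the rapid activity and glucocorticoid lists were 0.22 and 0.13. Gjb6 is both in that score and in the glucocorticoid list.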

How the data were processed

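RNA was sequenced from dorsal hippocampus lysates as polyA RNA with the RNeasy Mini and Nextera XT kits, per the labels' protocols. The kit marks no strand, so a gene and an antisense partner cannot be told apart. The authors deposited read counts per gene and library, not normalised. GRCm38, STAR 2.7.7a, featureCounts and DESeq2 are named, with no role, per the submitters' processing notes, and no source used here says what was done with reads matching more than 1 gene. Of the tables' columns, 75 lysate columns were used and 76 of the purified fraction were not. One home cage column of the Pvalb line matched a group but no sample, and 2 labelled lysates (Pvalb home cage replicate 3 at 15 min and Camk2a box replicate 4 at 60 min) had no matched column and are not analysed here.

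The 22654 genes listed in all 3 tables of the 15 min set entered, with 34 libraries in 1 fit (box, shock and home cage). The test was edgeR's quasi-likelihood test (edgeR 4.0.16, R 4.3.3) with filterByExpr, TMM factors, robust estimation and line as a covariate, with Benjamini-Hochberg adjustment over 16067 genes and a threshold of 0.05. SEs were taken as log2 fold change over the root of F, and CPM are over all counts of a library. Means are over libraries, so a fitted fold change with its line term can differ from their ratio. Fits per line, between lines and between 15 and 60 min used the same tool. No pair of replicates agreed within sampling noise (smallest reduced chi-square 40). The tests were run on simulated data first. No label says more than that these are biological replicates, and p-values reflect only the spread among them. Positions come from GENCODE M21.

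The members and the gene lists were chosen with earlier results of these data known. Genes were named by a rule: a fixed set of activity, glucocorticoid and cell class genes, the 8 smallest p in each direction, 2 per list by smallest p, 3 per line or difference and those called by DESeq2. Unnamed gene models and sex-linked genes were left out, as was 1 further gene under the rule, which is not reported here. The choice of genes printed among those the rule allows, and of further list members given as examples (among them Klf2, Trib1, Csrnp1, Per1, Mt1 and Cdkn1a), was made after their values were seen. The low-count filter by line and condition can be read in 3 ways, and the reading through the fit's own terms was settled after all had been run. DESeq2 p-values of genes without a count in the libraries compared were set to missing, a convention added after the data were seen.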

Additional observations from a re-analysis of the deposited data

Results flagged for a closer look

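For the genes named in the report, each group of 4 or 5 box or shock lysates of 1 line was searched for an outlying library. Such a library is one whose gap to its nearest neighbour takes up a large part of the range of the group. By its nominal cut, chance alone would mark about 1 in 20 such groups. Of 216 groups 34 were marked (15.7%), and 14 of the 34 fell on Camk2a shock replicate 4. The genes are not independent of each other, and no cause was tested. Some of them, such as Ldhal6b, had 0 counts in many libraries, where 1 library with counts is enough to be marked. The share of marked groups over all genes is not given, so 15.7% is not read as an excess.

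Camk2a shock replicate 4 held 461.7 CPM of Fos (the other 3 of its group 37.2 to 46.6), 27.1 CPM of Fosb (1.77 to 3.37), 519.2 CPM of Junb (55.1 to 91.1) and 734.2 CPM of Arc (158 to 218). It held 179.4 CPM of Npas4, 622.1 CPM of Egr1 (197 to 245), 134.3 CPM of Egr2, 193 CPM of Egr4, 410.7 CPM of Btg2 and 43.7 CPM of Ier2 (8.54 to 9.50). Dusp1 was at 235.6 CPM (55.7 to 59.2), Cyr61 at 37.7 CPM (3.24 to 6.83), Errfi1 at 139.4 CPM (83.6 to 91.7) and Dnm3os at 2.12 CPM (0 to 0.213). In Camk2a shock replicate 2, Slc13a5 was high at 3.84 CPM and Atf4 at 85.6 CPM.

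In the Pvalb line, box replicate 1 was high for Slc13a5 (2.71 CPM), Crhr1 (13.4 CPM) and Dnajb1 (163.6 CPM against 84.3 to 93.3), and box replicate 4 was the only box library there with counts of Ldhal6b (0.203 CPM). Shock replicate 1 held 5548 CPM of Ttr where the other 4 held 7.28 to 42.3. Shock replicate 2 was high for Ddit4 (10.7 CPM) and Atf4 (106.3 CPM), and shock replicate 5 for Dusp5 (19.7 CPM).

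In the Sst line, shock replicate 1 was high for Fos (70.4 CPM against 42.5 to 44.9) and Ldhal6b (0.0238 CPM against 0) and low for Bdnf (78.5 CPM), Vps33b (21.3 CPM) and Errfi1 (80.6 CPM). Shock replicate 2 was low for Hif3a (1.40 CPM), and shock replicate 4 was low for Egr1 (380.4 CPM against 430 to 448) and high for Dyrk3 (34.2 CPM). Shock replicate 5 was high for Sst (278.7 CPM against 147 to 154) and Fam83g (0.577 CPM).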

How the results depend on the processing

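Shock against box was recomputed under 40 alternatives, 24 of which leave out 1 library. The 2 other readings of the low-count filter were added after seeing the data. The count of genes past the adjusted test over the 3 lines was 0 in 39 of them and 15 with DESeq2, the median of all genes stayed between -0.023 and 0.002, and no gene named in the report passed over the 3 lines. Within the Camk2a line DESeq2 gave 30 genes, and leaving out 1 library gave 0 to 2, with 2 without Camk2a shock replicate 2 (Mcm3 and Sp6) and 2 without Camk2a box replicate 2. DESeq2 gave 6 in the Pvalb line and 33 for the difference between times, and no low-count filter gave 2 for the latter. The median of the glucocorticoid list was 0.252 without the Camk2a line and 0.074 without the Sst line. That of the mTOR list was -0.061 without the Pvalb line. For these the cause was not tested.

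A fit with the replicate number as a block (replicate block) also gave 0 genes (418 at an unadjusted p under 0.05). Same-numbered box and shock libraries correlated between -0.118 and 0.323 in their deviations, with 6 of 10 pairs over 0.1 and 2 below 0, and 9 of 20 libraries correlated best with their own number. As not every pair was over 0.1, the numbers were not taken as pairs. With the block the medians of the rapid activity and glucocorticoid lists were 0.099 and 0.11. Camk2a shock replicate 4, Pvalb shock replicate 5 and Sst shock replicate 5 have no box or home cage library of their number. Each is alone in its block and adds nothing to these values. For Camk2a shock replicate 4 the block thus acts like leaving it out, where the medians were 0.079 and 0.123.

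Log2 fold changes that turned sign lay near 0 or rested on 1 library or line. The replicate block gives Camk2a shock replicate 4 no weight in this comparison. With the block Npas4 was at -0.037, Egr3 at -0.289, Btg2 at -0.05, Ttr at 0.495 and Fos in the Camk2a line at -0.18. Without the Camk2a line Npas4 was at -0.167, Btg2 at -0.099, Pvalb at 0.103, Sst at 0.109 and Snai2 at -0.132. Without the Pvalb line Egr3 was at -0.106, Bdnf at 0.046, Ttr at 0.931 and Crhr1 at -0.037, and without the Sst line Homer1 was at 0.033 and Camk2a at -0.009. With limma voom and quality weights Egr3 was at -0.023, Homer1 at 0.011, Pvalb at 0.009 and Sst at 0.092. Adjusted for the non-neuronal marker score, Egr3 was at -0.005 and Ttr at 0.047. Ttr is itself part of that score, so a value near 0 was favoured in advance. With sex as a covariate Bdnf was at 0.017 and Homer1 at 0.068, and with GC slope Homer1 was at 0.04. Leaving out 1 library moved Npas4 between -0.105 and 0.971, Egr3 between -0.109 and 0.121, Btg2 between -0.1 and 0.509, Dusp1 between 0 and 0.259, Homer1 between -0.075 and 0.058, Sst between -0.091 and 0.109 and Fos in the Camk2a line between -0.17 and 2.011. Depth was lowest in the Camk2a libraries, where the median SE was 0.277.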
